A study of Mus musculus with 12 samples.

Results

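The genomic windows around the genes for the NF-kB subunits and for Bcl3 were examined for RelA and Ikaros binding in macrophages. A hotspot is a region enriched for sequence tags in 1 library, and hotspots were taken when they shared at least 1 bp with any of 6 windows on mm9 named for Nfkb1, Nfkb2, Relb, Rel, Rela and Bcl3. The windows, 415 kb in all, held 59 of the 50940 hotspots in 10 libraries, and these merged into 19 regions. None of the 59 came from input DNA, and none overlapped an input hotspot.

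NF-kB is a family of transcription factors that act as dimers. Nfkb1 and Nfkb2 encode precursors that are processed into DNA-binding subunits without a transactivation domain, while Rel, Rela and Relb encode subunits that carry one. Bcl3 encodes an atypical IkB protein that acts in the nucleus with dimers made from the Nfkb1 and Nfkb2 products. Lipopolysaccharide (LPS), a component of the Gram-negative outer membrane, is sensed by macrophages through Toll-like receptor signalling, which releases NF-kB from its cytoplasmic inhibitors, and several NF-kB genes are known targets of the factor.

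The cells were primary macrophages grown from the bone marrow of mice on the C57BL/6J background, kept with LPS for 0, 3 or 8 h and cross-linked with formaldehyde. RelA was precipitated at the 3 times from cells labelled wild type and, in a second series, from cells labelled Littermate control. Ikaros, the zinc finger product of Ikzf1, was precipitated at the 3 times from wild-type cells, and input DNA came from untreated wild-type cells. What the littermates were littermates of is not said in their own labels, and how many mice each library holds is not given. The input samples of the Littermate control and Ikzf KO cells, 2 of the 12 samples labelled, were not analysed here. File names of 6 samples carry a time other than the labelled one, and those of wild-type RelA and Ikaros labelled 0 h lack the labelled time, so values over time rest on the labels. Between the RelA series, genotype label, mice and library preparation cannot be told apart. Each group is 1 library, so no difference below has a replicate check and no p-value is given. The exact Clopper-Pearson 95% intervals cover counting error alone, and neighbouring hotspots are not independent.

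The windows bear the names of genes, but no mm9 gene annotation was used here, so a hotspot is placed in a window and not in a gene. For the 2 windows on chromosome 7 the names are in doubt. General knowledge of the mm9 map places Bcl3 inside the window named for Relb, Relb below that window, and neither gene in the window named for Bcl3. In the GRCm38.p6 gene table Relb comes first and Bcl3 after it on the same chromosome, with 10 protein-coding genes in between, Apoe among them. Both windows were therefore also placed 200 kb lower, and they are called here by the names they were given.

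Start-site sequences of the genes are shown first, because the files hold no sequence and a reader may wish to see which letters lie at these promoters. RefSeq promoter windows of GRCm38.p6, 250 bases before to 50 bases after a start site, were at hand for 4 of the 6 genes. Each was searched on both strands for GGGAANNNCC, a part of the NF-kB consensus, and matches are in capitals. The windows printed are chr19:46304487-46304786 on the plus strand for Nfkb2, the first of its 3 start sites in the table, chr11:23770920-23771219 on the minus strand for Rel, chr19:5637291-5637590 on the plus strand for Rela and chr7:19822706-19823005 on the minus strand for Bcl3. These positions are on another assembly than the hotspots and cannot be laid on them.
Nfkb2: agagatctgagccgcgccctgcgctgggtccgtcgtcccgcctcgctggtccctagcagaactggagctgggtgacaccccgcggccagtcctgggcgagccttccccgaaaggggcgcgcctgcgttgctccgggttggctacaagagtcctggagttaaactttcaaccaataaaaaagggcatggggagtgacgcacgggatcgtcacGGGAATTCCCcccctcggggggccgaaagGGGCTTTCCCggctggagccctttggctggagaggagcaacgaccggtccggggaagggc
Rel: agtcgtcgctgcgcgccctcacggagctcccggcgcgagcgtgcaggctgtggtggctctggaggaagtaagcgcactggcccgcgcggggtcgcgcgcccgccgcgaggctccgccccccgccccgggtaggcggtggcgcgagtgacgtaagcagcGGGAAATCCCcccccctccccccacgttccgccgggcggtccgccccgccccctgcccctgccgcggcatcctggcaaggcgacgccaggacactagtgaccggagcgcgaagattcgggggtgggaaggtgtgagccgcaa
Rela: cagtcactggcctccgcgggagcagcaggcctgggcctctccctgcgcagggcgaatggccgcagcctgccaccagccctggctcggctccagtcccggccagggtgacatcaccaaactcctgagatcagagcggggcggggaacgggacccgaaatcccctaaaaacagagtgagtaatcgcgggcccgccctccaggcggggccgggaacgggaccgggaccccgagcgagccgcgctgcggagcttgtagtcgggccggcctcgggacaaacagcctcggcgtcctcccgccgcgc
Bcl3: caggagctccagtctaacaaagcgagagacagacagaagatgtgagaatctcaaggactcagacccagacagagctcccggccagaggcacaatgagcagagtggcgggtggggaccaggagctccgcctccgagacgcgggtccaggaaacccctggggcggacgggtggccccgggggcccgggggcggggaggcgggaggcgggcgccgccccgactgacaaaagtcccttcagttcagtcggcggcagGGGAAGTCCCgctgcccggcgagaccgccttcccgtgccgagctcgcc

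At least 1 promoter window of Nfkb2, Rel and Bcl3 held the motif, and that of Rela did not. Nfkb2 held GGGAATTCCC, which reads the same on both strands, and GGGCTTTCCC, a match on the minus strand. Rel held GGGAAATCCC and Bcl3 held GGGAAGTCCC. Counted by promoter window, 3 of the 6 windows of these 4 genes held this motif, against 5.78% of the 32851 in the table. Of the 6, 3 belong to Nfkb2, so they are not independent, and the difference was not tested. The looser GGGNNNNNCC was in all 6 promoter windows of these genes and in 50.8% of all promoter windows, so it does not set them apart. The other 2 Nfkb2 windows overlap each other, and the stretch they share holds GGGACTTTCC, a match to the looser letters. TGGGAA, a core bound by Ikaros, was found only in the Rel window among these 6, against 25.6% of all promoter windows. A match is a description of letters and not a site shown to be bound.

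Of the 28 RelA hotspots in these windows, 27 were listed after LPS. Without hotspots that overlap input, the whole wild-type RelA lists held 47, 4972 and 1878 hotspots at 0, 3 and 8 h. The whole littermate RelA lists held 5805, 9999 and 5231. Most RelA hotspots of the whole lists were thus also listed after LPS. List length enters the count of 27, which describes the windows alone. For the 3 times in order, the wild-type lists held 0, 10 and 5 window hotspots and the littermate lists held 1, 7 and 5. Ikaros gave 2, 15 and 14. At 0 h the windows held 2.41 littermate RelA hotspots per Mb, against 2.20 per Mb over the whole list, and the wild-type RelA list at 0 h was too short, at 0.0178 per Mb, for an empty window to be informative. At 3 h the counts came to 24.1 hotspots per Mb in the windows for wild-type RelA, against 1.88 per Mb over the whole list, and to 36.1 per Mb for Ikaros, against 2.69 per Mb. Littermate RelA at 3 h came to 16.9 per Mb, against 3.79. At 8 h the values were 12.0 against 0.711 for wild-type RelA, 12.0 against 1.98 for littermate RelA and 33.7 against 5.22 for Ikaros. Ikaros at 0 h, with 2 window hotspots, already came to 4.82 per Mb, against 0.323. Values per Mb over the whole list were taken over the full span of the chromosomes. The windows were named for genes with a part in this response, and windows of other genes were not counted. The higher numbers per Mb therefore cannot be read as particular to these windows, and their source was not tested.

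**Figure D1:**
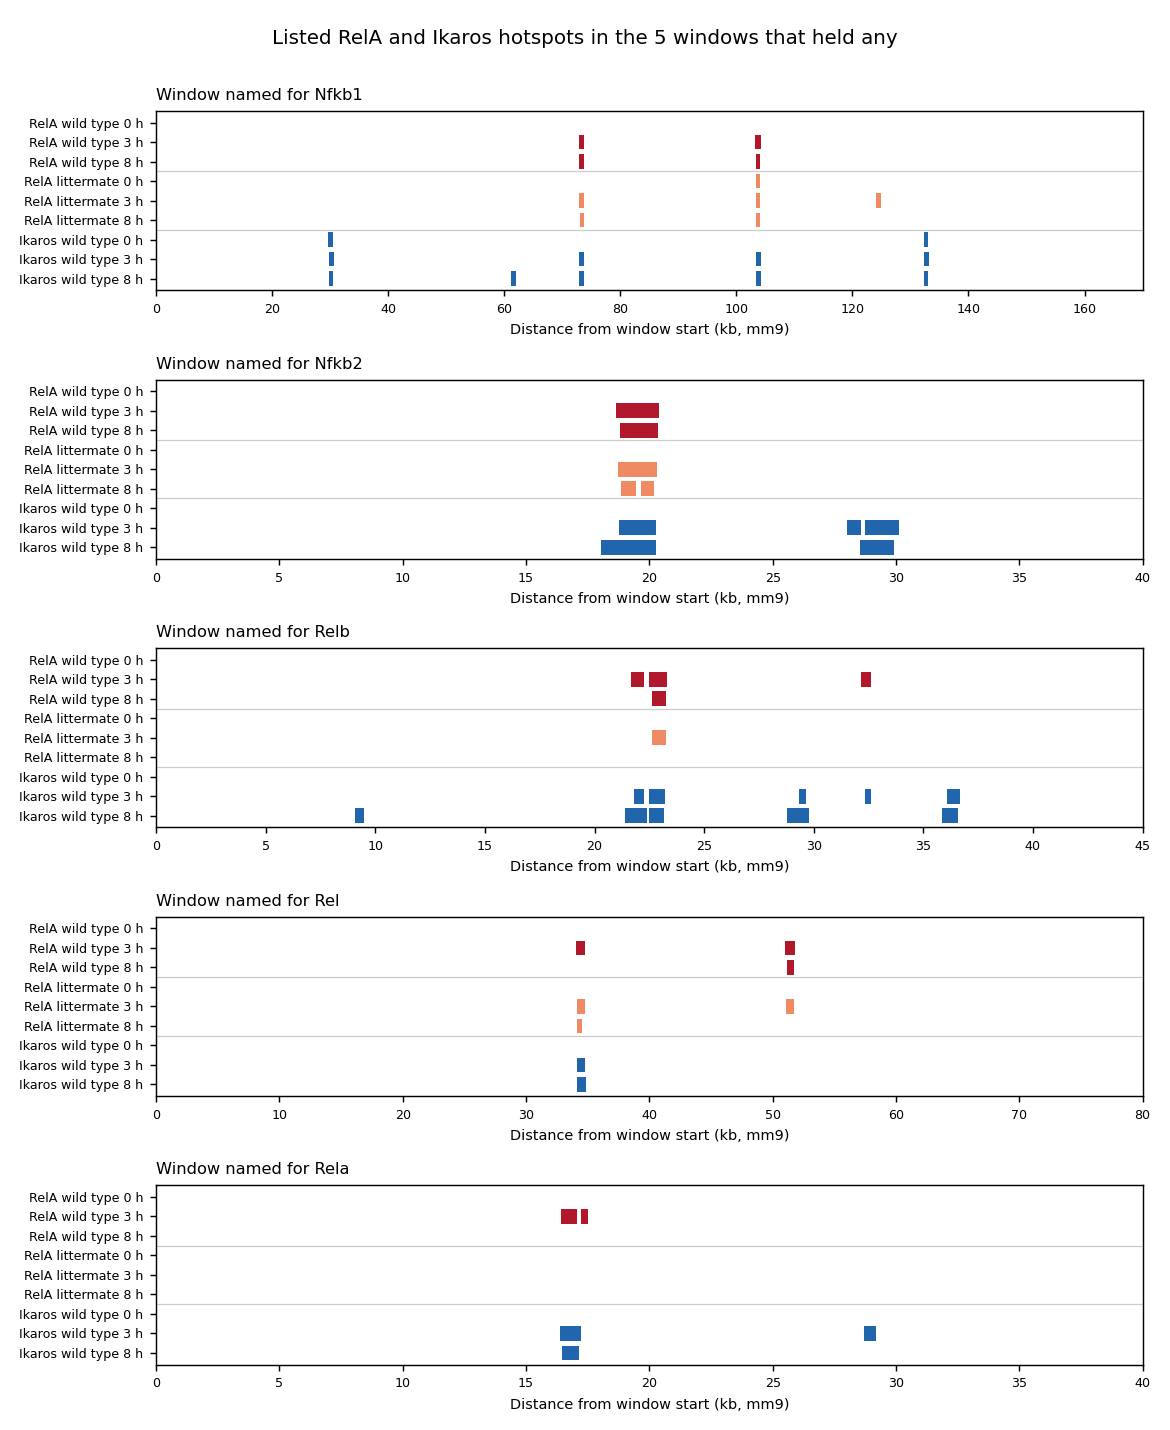
Listed hotspots in the 5 windows that held any, with 1 row per library and distance from the window start in kb on mm9 along the x axis. Dark red bars are wild-type RelA, light red bars littermate RelA and blue bars wild-type Ikaros, and the shortest bars are widened to stay visible. RelA and Ikaros bars line up at 8 of the 19 merged regions, and the wild-type RelA row at 0 h is empty.

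The files give for each hotspot the highest tag density, whose scale is not stated, and a z score. Libraries are not known to share a scale and their lists differ in length, so densities, z scores and ranks are set side by side below and are not measures of change between libraries. A rank of 1 is the highest z score of a list, after hotspots that overlap input were removed. The lists held 47, 4972 and 1878 hotspots for wild-type RelA at 0, 3 and 8 h, 5805, 9999 and 5231 for littermate RelA, and 853, 7109 and 13796 for Ikaros. The lowest z score differed from list to list, between 8.64 and 10.9, so a region missing from a list may be unbound or under its cut.

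The strongest RelA hotspot of the Nfkb1 window lay on chromosome 3 at 135333235 to 135334202 (region 4 of that window, counted from its low end). In wild-type cells RelA was not listed there at 0 h, and it had a highest density of 89.2 and z 60.4 at 3 h and of 66.2 and z 42.3 at 8 h. These z scores ranked 36 of 4972 and 84 of 1878. In the littermate series the densities at 0, 3 and 8 h were 22.6, 77.7 and 54.6, with z scores of 12.1, 62.9 and 35.6. Both series thus listed it near the top of the list at 3 and 8 h, and it was the only window region with RelA at 0 h in either series. Within the littermate 0 h list it ranked 3910 of 5805 by z score but 155 by highest density. Ikaros was listed there at 3 h with a density of 22.2 and z 14.6 (rank 3037 of 7109) and at 8 h with 34.6 and z 23.6 (rank 2196 of 13796), and not at 0 h.

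A weaker RelA region of the Nfkb1 window, region 3, lay on chromosome 3 at 135302927 to 135303679, its centre 30.4 kb from that of region 4. RelA was listed there at neither 0 h. The wild-type densities were 40.9 at 3 h and 29.1 at 8 h (z 25.3 and 20.0), and the littermate densities 25.7 at 3 h and 23.9 at 8 h (z 22.7 and 12.6). The region was therefore listed at the same times in both series. Ikaros was listed there at 3 h with a density of 30.0 and at 8 h with 25.0 (z 13.6 and 11.9). A further region, region 5 at 135354205 to 135354825, was listed for littermate RelA at 3 h alone, with a density of 25.7 and z 19.6.

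The Nfkb1 window was the only one of the 6 with Ikaros hotspots at 0 h, 2 in number, and neither coincided with RelA in any library. On chromosome 3 at 135259793 to 135260476, region 1, Ikaros had a density of 23.7 at 0 h, 29.4 at 3 h and 57.1 at 8 h, with z scores of 10.7, 9.96 and 25.7. At 135362457 to 135362947, region 6, the densities were 20.1, 23.2 and 29.2 and the z scores 10.2, 11.1 and 12.9. By z score both were near the bottom of the resting list, at ranks 712 and 793 of 853, but by highest density they stood near its middle, at ranks 328 and 512. Region 2 at 135291075 to 135291967 was listed for Ikaros at 8 h alone, with a density of 35.3.

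The Nfkb2 window held 1 RelA region, and it was among the widest in 3 of the 4 RelA lists that held it. The merged region of RelA and Ikaros hotspots lay on chromosome 19 at 46378050 to 46380373, and its widest RelA hotspot began at 46378659. RelA was listed there at neither 0 h. In wild-type cells it had a density of 76.8 and z 60.7 at 3 h (rank 35 of 4972) and of 54.9 and z 40.7 at 8 h (rank 107 of 1878). In littermate cells it had 43.6 and z 44.1 at 3 h (rank 126 of 9999), while at 8 h the region was listed as 2 hotspots with densities of 31.3 and 26.1 and z scores of 21.0 and 17.9. The wild-type hotspot was 1714 bp wide at 3 h, the 31st widest of its list with a list median of 538 bp, and 1551 bp wide at 8 h, the second widest, against a median of 547 bp. The littermate 3 h hotspot was 1584 bp wide, the fourth widest, against a median of 326 bp. At 8 h the littermate hotspots were 606 and 540 bp wide, at width ranks 326 and 528 of 5231.

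Ikaros covered much of the same Nfkb2 region, with a density of 37.7 and z 24.7 at 3 h and of 35.7 and z 28.0 at 8 h, and was not listed there at 0 h. Its hotspots were 1513 bp wide at 3 h and 2233 bp wide at 8 h, at width ranks 79 of 7109 and 29 of 13796. Great width was thus not particular to RelA at this region. The centres of the wild-type RelA and Ikaros hotspots were 12.5 bp apart at 3 h and 400.0 bp apart at 8 h, when the Ikaros hotspot began at 46378050 and the RelA hotspot at 46378791. A second region of the window, 7.64 kb beyond it at 46388014 to 46390139, was listed for Ikaros at 3 h as 2 hotspots with densities of 17.5 and 23.6 and at 8 h as 1 with 21.3. Its widest Ikaros hotspots at 3 and 8 h, 1392 and 1389 bp, were at width ranks 94 and 153 of their lists. No RelA library listed this second region.

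The Rel window held 2 RelA regions, and the series differed in which of them was still listed at 8 h. Neither was listed in any library at 0 h. The first, on chromosome 11 at 23654072 to 23654830, had a wild-type density of 24.2 and z 17.0 at 3 h and was not listed at 8 h, while the littermate densities were 26.9 at 3 h and 24.4 at 8 h (z 23.0 and 11.5). The second, 16.2 kb further at 23671024 to 23671816, had wild-type densities of 34.9 at 3 h and 26.0 at 8 h (z 25.9 and 16.5) and a littermate density of 21.1 at 3 h (z 16.1), and was not listed in littermate cells at 8 h. With 1 library per group, the difference between the series was not tested. Ikaros was listed at the first, with a density of 27.6 and z 17.4 at 3 h and of 55.1 and z 28.5 at 8 h, and in no library at the second.

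The Rela window carried RelA in a single library, wild type at 3 h. In the merged region on chromosome 19 at 5636394 to 5637233, the RelA hotspot spanned 5636410 to 5637062. It had a density of 26.7 and z 20.7, rank 991 of 4972. A second RelA hotspot lay at 5637244 to 5637524, with a density of 15.0 and z 9.24. It began 11 bp beyond the end of the merged region, which was the end of an Ikaros hotspot. No littermate RelA list held a hotspot in the window. Ikaros was listed at the first region at 3 h with a density of 35.4 and z 23.9 and at 8 h with 39.3 and z 20.3, and at 5648713 to 5649201 at 3 h alone with 20.7. At 3 h the Ikaros hotspot at the first region ranked 791 of 7109.

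The window named for Relb held 15 hotspots in 6 regions, all listed after LPS and most of them for Ikaros. RelA was strongest in region 3, on chromosome 7 at 20402472 to 20403317. It was not listed there at 0 h and had a wild-type density of 30.1 and z 25.1 at 3 h and of 35.0 and z 19.8 at 8 h. In littermate cells it had 27.4 and z 22.7 at 3 h and was not listed at 0 or 8 h. Ikaros had a density of 34.3 and z 19.0 at 3 h and of 28.3 and z 18.2 at 8 h. Region 3 was thus the only region of this window with RelA in both series.

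Only 73 bp before it, region 2 at 20401406 to 20402399 had RelA in wild-type cells at 3 h alone (density 18.1, z 11.3) and Ikaros at 3 h (20.6, z 11.7) and 8 h (40.5, z 26.7). Region 5 at 20412138 to 20412612 had RelA in wild-type cells and Ikaros, both at 3 h alone (z 12.3 and 10.1). Region 6 at 20415865 to 20416671 was an Ikaros region, with a density of 21.9 at 3 h and 34.6 at 8 h. The others, regions 1 and 4, had Ikaros alone, with z scores between 10.7 and 16.8. Just outside the window, 4.83 kb above its upper edge, RelA was listed in wild-type cells at 3 h (density 24.2, z 16.6) at 20429829 to 20430462. Ikaros was listed at the same place at 3 h (z 19.3) and 8 h (z 36.5).

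The window named for Bcl3 held 0 hotspots in all 10 libraries. Its nearest wild-type RelA hotspot at 3 h was 73.9 kb below it. When both chromosome 7 windows were placed 200 kb lower, the upper of them held the same 15 hotspots that lie in the window named for Relb. The lower one held a single hotspot, on chromosome 7 at 20214732 to 20215169, listed for wild-type RelA at 3 h alone with a density of 17.4 and z 9.94 (rank 4002 of 4972).

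**Figure D2:**
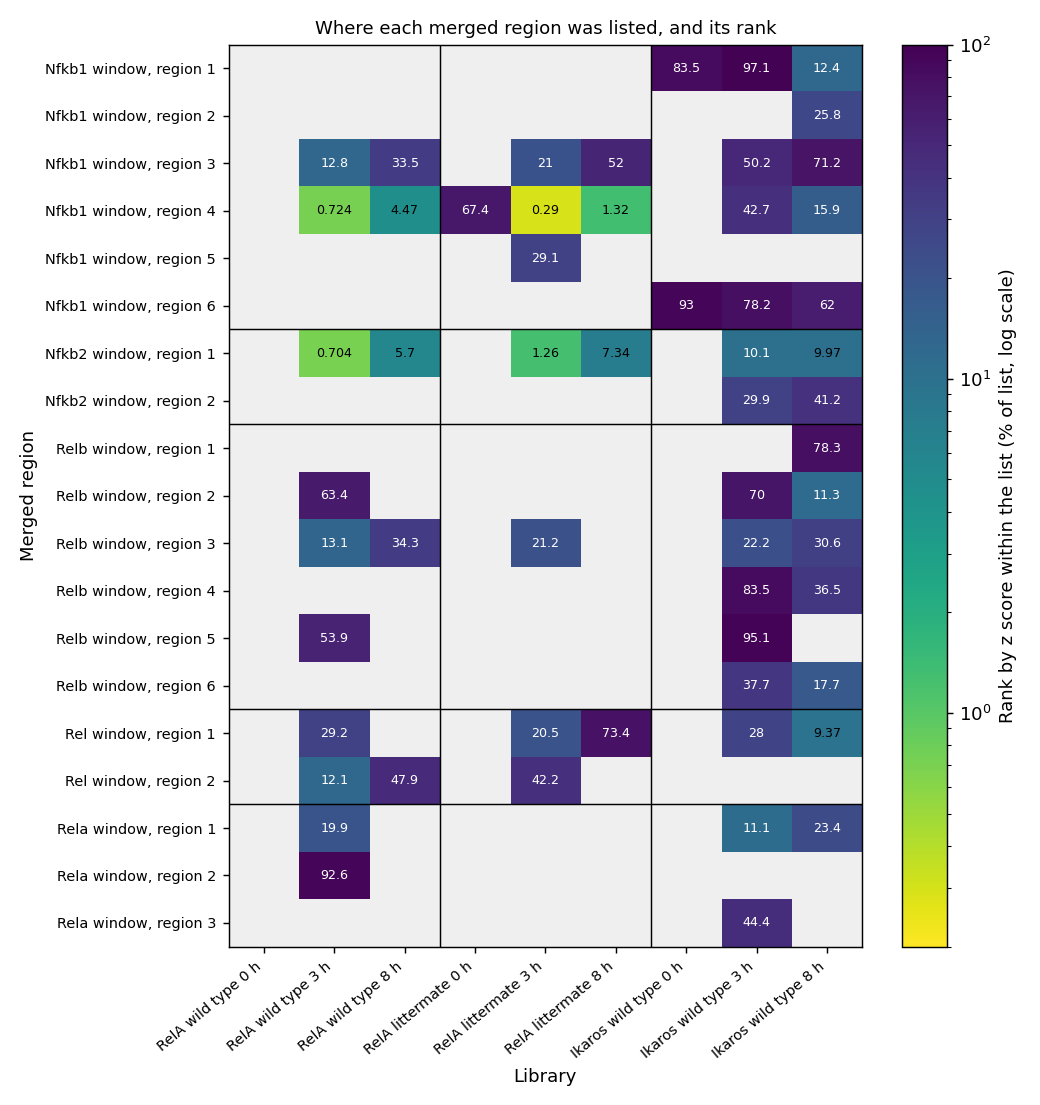
Rank of each of the 19 merged regions (rows, in window order) in each of the 9 immunoprecipitated libraries (columns), as percent of the list by z score on a log colour scale. Each cell gives the rank of the strongest hotspot and grey cells were not listed. Region 4 of the Nfkb1 window and region 1 of the Nfkb2 window stood within the strongest 0.724% and 0.704% of the wild-type RelA list at 3 h.

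Of the 19 regions, 8 were listed for both factors, 3 for RelA alone and 8 for Ikaros alone, and 14 were listed in 2 or more libraries. No share over merged regions of the whole lists was computed, so the region counts here describe the windows alone. RelA was listed in both series at 6 regions, and at 3 h and 8 h in both series at 3, regions 3 and 4 of the Nfkb1 window and region 1 of the Nfkb2 window. None of the 11 regions with RelA was listed for Ikaros at 0 h. Among wild-type RelA hotspots at 3 h this was 0 of 10 in the windows, against 5.51% with Ikaros at 0 h over the whole list, and a count this small does not set the windows apart. All 8 shared regions were listed for Ikaros at 3 h. Where hotspots of the same time overlapped, the median distance between the centres of wild-type RelA and Ikaros hotspots was 45.5 bp at 3 h (8 pairs, 12.5 to 88.0 bp) and 104.0 bp at 8 h (4 pairs, 16.5 to 400.0 bp).

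The share of wild-type RelA 3 h hotspots with Ikaros at 3 h was 8 of 10 in the windows, 80.0% (95% interval 44.4 to 97.5), against 54.0% over the whole list. With Ikaros at 8 h it was 7 of 10, 70.0% (34.8 to 93.3), against 66.5%. Of the same 10 hotspots 5 were also listed for wild-type RelA at 8 h, 50.0% (18.7 to 81.3), against 31.3%, and 0 at 0 h, against 0.744%. In the littermate 3 h list 6 were found, 60.0% (26.2 to 87.8), against 34.4%. Each interval held the share of the whole list, so with 10 hotspots no difference from it was detectable.

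Strength also lay apart between the windows and the list. By z score 6 of the 10 hotspots were in the strongest quintile of the wild-type 3 h list, of which 5 were listed at 8 h, against 77.1% of that whole quintile. The other 4 hotspots fell in 4 different quintiles and none was listed at 8 h, against 6.93%, 11.7%, 22.6% and 38.1% of these quintiles from the weakest up.

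Littermate hotspots of the windows were dense for their lists. Their highest densities ran from 21.1 to 77.7 at 3 h and from 23.9 to 54.6 at 8 h, against list medians of 4.11 and 4.56. All 7 at 3 h and all 5 at 8 h were in the densest 20% of their lists, whereas by z score 2 of 7 and 3 of 5 were in the strongest 20%. Of the 7 at 3 h, 6 were in the wild-type 3 h list, 85.7% (42.1 to 99.6), against 17.3% of the whole littermate list and 78.7% of its hotspots of highest density 10 or more. Likewise 4 of 7 were listed at 8 h, 57.1% (18.4 to 90.1), against 14.4% and 41.4%, and 5 of 7 met Ikaros at 3 h, 71.4% (29.0 to 96.3), against 12.6% and 57.9%. With the list held to the denser hotspots, no difference was detectable. At 0 h 1 of the 7 was listed, 14.3% (0.361 to 57.9), against 7.95% of the whole list.

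The 5 window hotspots of each RelA series at 8 h were all in the 3 h list of their own series, against 83.9% of the whole wild-type list, 27.6% of the whole littermate list and 86.4% of its hotspots of highest density 10 or more. In wild-type cells 4 of the 5 met Ikaros at 8 h, 80.0% (28.4 to 99.5), against 80.5%. Between the series, 3 of the 5 wild-type hotspots were in the littermate 8 h list, 60.0% (14.7 to 94.7), against 44.0%, and 4 of the 5 in littermate cells had a wild-type counterpart at 8 h, 80.0% (28.4 to 99.5), against 15.8% of the whole list and 80.3% of its hotspots of highest density 10 or more. Of these 4, 2 were parts of the same Nfkb2 region. The wild-type hotspots missing from the littermate list at 8 h were region 3 of the window named for Relb and the second Rel region, and the littermate hotspot missing from the wild-type list was the first Rel region.

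**Figure D3:**
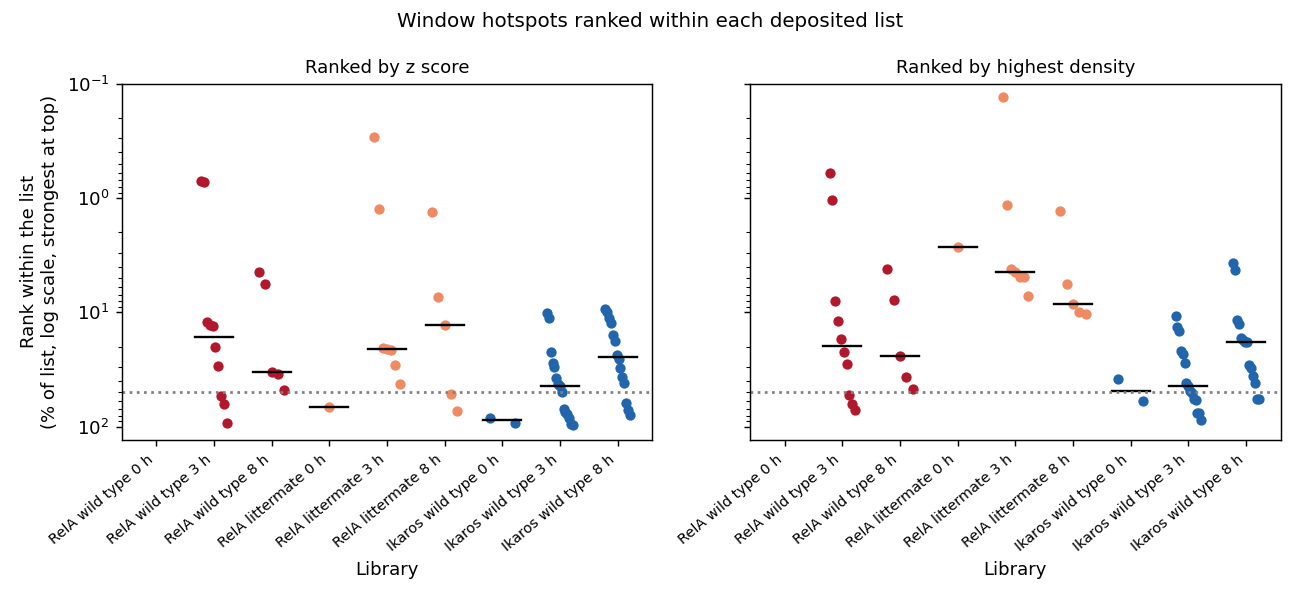
Each point is a window hotspot, placed by its rank within its list as percent of the list (log scale, strongest at the top), by z score on the left and by highest density on the right, for the 9 immunoprecipitated libraries. Bars are medians and the dotted line marks the middle of a list. Littermate points at 3 h have a median of 21.0% by z score and 4.40% by highest density, while the wild-type RelA medians at 3 h are 16.5% and 19.7%.

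Most Ikaros hotspots that the windows held at 8 h were already listed at 3 h. The windows held 14 Ikaros hotspots at 8 h and 15 at 3 h, while the whole list held 13796 at 8 h and 7109 at 3 h. Of the 14 at 8 h, 12 overlapped a 3 h hotspot, 85.7% (57.2 to 98.2), against 42.2% of the whole 8 h list. The 2 not listed at 3 h were region 2 of the Nfkb1 window and region 1 of the window named for Relb. The share of the list rose with strength, from 13.7% in the weakest quintile of the 8 h list to 87.5% in the strongest, where 6 of the 14 lay and all 6 were listed at 3 h. The part of strength in the window share was not tested. In the other direction 13 of the 15 at 3 h were listed at 8 h, 86.7% (59.5 to 98.3), against 82.2%, and both resting Ikaros hotspots were listed at 8 h, against 93.9%. These shares count an overlap of 1 bp. When the overlap had to cover at least 50% of both hotspots, 10 of the 14 at 8 h were listed at 3 h, 71.4%. By that rule 10 of the 15 at 3 h were listed at 8 h, 66.7%. The whole-list shares by that rule were not computed.

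At 3 h the Ikaros hotspots of the windows ranked lower in their list than the wild-type RelA hotspots did in theirs, and at 8 h the order of the medians was the other way round. The wild-type RelA list held 4972 hotspots at 3 h and 1878 at 8 h, and the Ikaros list 7109 and 13796. Percent ranks at 3 and 8 h thus rest on lists of unlike length, and a change between the times was not tested. The 8 h medians rest on 5 RelA and 14 Ikaros hotspots. In the 3 h lists, 2 of 10 window hotspots of wild-type RelA and 0 of the 15 Ikaros hotspots were in the strongest 5% of their lists by z score. The median rank at 3 h was 16.5% of the list for wild-type RelA, with a range from 0.704% to 92.6%, and 44.4% for Ikaros, with a range from 10.1% to 97.1%. At 8 h it was 33.5% for wild-type RelA (4.47% to 47.9%) and 24.6% for Ikaros (9.37% to 78.3%). By highest density the medians were 19.7% for wild-type RelA and 43.8% for Ikaros at 3 h, and 24.2% and 18.2% at 8 h. RelA was listed at 3 h at 8 of these 15 Ikaros hotspots, 53.3% (26.6 to 78.7), against 37.1% of the whole list, and at 8 h at 4 of 14, 28.6% (8.39 to 58.1), against 10.8%.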

How the data were processed

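Tag-enriched regions (hotspots) of 9 immunoprecipitated libraries and 1 input were used. Coordinates are on mm9 and printed as deposited; per the submitters' processing notes, CASAVA was used. The sources used here do not give the aligner, hotspot caller, threshold or use of input. The authors deposited the highest and mean tag density of each region, a signal of unstated scale. They also deposited a z score, per the file headers, and its p-value, which was not used. Reads per library are unknown, which limits what absence from a list can show. File names give another time than the labels for 6 samples, 2 of them without the labelled time, and labels were followed.

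Hotspots overlapping input by 1 bp were removed, ranks taken within lists, and overlapping hotspots merged. Lists were called shared at 1 bp. Regions with values are those in 2 or more libraries, at most 4 per window by wild-type RelA z score at 3 h. Others named beside them were chosen after their values were seen. The windows, motifs and comparisons were chosen with earlier results of these data known. Alternatives were input kept, hotspot centres, windows 200 kb lower, a density floor of 10, reciprocal overlap, merging within 500 bp and rank by density. The overlap code was tested on simulated data. Python 3.11.15, numpy 2.4.6, pandas 2.3.3, scipy 1.17.1 and matplotlib 3.10.9 were used. Planned tests were descriptive, since each group has 1 library.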

Additional observations from a re-analysis of the deposited data

How the results depend on the processing

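Over 25 counts, shares and median ranks, 114 of 115 values under an alternative stayed within set limits. Limits were 1.5 times the reported value for counts and its 95% interval for shares. For median ranks an interval between ordered hotspot ranks was used. With 2 or 5 hotspots that interval was the full range of their ranks and covers less than 95%. The intervals are wide at these numbers of hotspots. The exception was the median rank of the 2 resting Ikaros hotspots, 49.2% of the list by highest density and 88.2% by z score. Other medians moved by over 1.5 times inside wide intervals. That of the littermate RelA hotspots was 21.0% at 3 h by z score and 4.40% by highest density, and at 8 h it was 12.8% by z score, 8.45% by highest density and 36.1% by z score among hotspots of highest density 10 or more. Some of the 115 values could not move. No window hotspot overlapped input and all had a highest density above 10. Keeping input or setting the density floor therefore left the window counts fixed, and these values say nothing about robustness. With both chromosome 7 windows 200 kb lower, the windows held 60 hotspots in 20 regions in place of 59 in 19. The alternatives for the Ikaros shares between 3 and 8 h were chosen after the data were seen. No paired analysis was possible because replicate numbers are absent from the labels and no result comes from a test, and with 1 library per group none could be left out. Depth is unknown, so the weakest binding each library could list is unknown too.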
